A study of Homo sapiens with 32 samples.

Results

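Decay of newly made RNA was examined for 10 genes of the YAP/TEAD branch of Hippo signalling in human breast cancer cells. The genes were the targets CCN1, CCN2, ANKRD1, AMOTL2, LATS2, AJUBA and AXL, and the regulators YAP1, WWTR1 and TEAD1. They were 10 of the 10827 genes with a decay rate in both cell lines. The set was chosen by the difference in the CCN1 decay rate, which was among the larger increases in MDA-LM2. The CCN1 difference is therefore given as a description with no test, and counts of calls are over the 9 members other than CCN1.

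MDA-LM2 is a derivative of the established line MDA-MB-231 that was selected for metastasis to the lung, and the comparison between the lines concerned the stability of their transcripts. Both lines were pulsed for 2 h with 4-thiouridine, a uridine analogue that enters new RNA and lets it be pulled down, and labelled RNA was collected at 0, 2, 4 and 7 h. Each line had 4 libraries at each time, 32 in all, and the deposited tables give for each line 4 replicate series with 1 decay rate per transcript and series. A rate is positive where labelled RNA fell with time, so a higher rate is faster decay. The sources used here do not give the log base and scaling of the rates, so half-lives were not computed. Whether the series are separate cultures is likewise not given, and a p-value below thus covers the spread of these series, which may be technical. The tables hold rates and no RNA levels, so neither read depth nor the identity of the lines could be checked from them.

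In Hippo signalling the kinases MST1 and MST2 activate LATS1 and LATS2, which phosphorylate the coactivators YAP (YAP1) and TAZ (WWTR1) and hold them out of the nucleus. Unphosphorylated YAP and TAZ bind TEAD transcription factors and switch on genes such as CCN1, CCN2 and ANKRD1, which are commonly read as markers of YAP activity. Several targets, among them LATS2, AMOTL2 and AJUBA, encode proteins that act back on the pathway. The CCN1 and CCN2 transcripts are immediate early transcripts and are known to be short-lived.

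The sequences that bear on these genes are the TEAD motif in their promoters and the AU-rich pentamer in their 3′ UTRs, an element known from short-lived transcripts. Among the 250 bases before the RefSeq start of each gene (GRCh38.p14), 3 of 8 members (all but CCN1 and TEAD1) held GGAATG, the core motif bound by TEAD factors, or its reverse complement CATTCC. The forward and reverse forms cannot overlap each other. CCN2 held 3, ANKRD1 held 2 and YAP1 held 1. At least 1 occurred in 9.38% of the 8575 promoters of measured genes, at least 2 in 0.688% and at least 3 in 0.0583%. The promoters of CCN2 (chr6:131951373-131951622, minus strand) and ANKRD1 (chr10:90921088-90921337, minus strand) are shown because they held the most copies. Capitals mark the motif, whose first base lies at -169, -104 and -95 from the start of CCN2 and at -220 and -128 from that of ANKRD1.
CCN2: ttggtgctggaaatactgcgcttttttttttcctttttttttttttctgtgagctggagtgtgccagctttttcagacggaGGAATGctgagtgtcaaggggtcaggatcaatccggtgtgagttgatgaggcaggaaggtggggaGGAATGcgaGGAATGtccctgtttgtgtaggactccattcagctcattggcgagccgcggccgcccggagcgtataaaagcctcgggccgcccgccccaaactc
ANKRD1: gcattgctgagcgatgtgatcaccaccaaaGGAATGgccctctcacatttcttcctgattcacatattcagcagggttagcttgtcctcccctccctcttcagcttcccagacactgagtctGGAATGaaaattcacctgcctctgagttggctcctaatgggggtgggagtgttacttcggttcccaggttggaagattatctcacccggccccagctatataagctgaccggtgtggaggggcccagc

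The pentamer ATTTA was counted in the 3′ UTR of the GENCODE v29 transcript matched to each gene, on the transcript strand and with overlapping copies counted. It was found in 7 of the 9 matched members and in 72.9% of 9534 genes, and WWTR1 had no match. Windows of 30 bases are shown for 4 of these 7, with positions from 1 at the first base of the 3′ UTR and with pentamers in capitals. The 4 were not picked by rate. CCN1 and CCN2 ranked 1 and 2 among the members by mean rate in MDA-LM2, but AMOTL2, which ranked 3 there, is not shown. The windows of AJUBA and TEAD1 are not shown either. The CCN1 window (chromosome 1) covers positions 618 to 647, that of CCN2 (chromosome 6) 89 to 118, that of ANKRD1 (chromosome 10) 201 to 230 and that of LATS2 (chromosome 13) 1394 to 1423.
CCN1: attttATTTAtggaattaaccATTTAataa
CCN2: aagttATTTAaatctgtttttctaactggg
ANKRD1: tgtttATTTATTTActgccacgctactgat
LATS2: ttcctATTTAaagtgATTTAtatttgagta

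CCN1 and CCN2 encode secreted matricellular proteins that bind integrins. CCN1 (formerly CYR61) had rates of 0.790, 0.822, 0.846 and 0.767 in MDA-LM2 series 1_1, 1_2, 2_1 and 2_2, against 0.459, 0.529, 0.513 and 0.545 in the same-named MDA-MB-231 series. All 4 MDA-LM2 rates lay above all 4 MDA-MB-231 rates. The means were 0.806 ± 0.0348 in MDA-LM2, against 0.512 ± 0.0375 in MDA-MB-231 (SD, n = 4 series each), a difference of 0.294, which is the value that led to the choice of these genes. Among the 7223 genes with all 8 rates within 1 either side of 0, this was the increase of rank 62, and over all 10827 genes it was of rank 474. FSTL3 at 0.296 stood close above it, and CDH12 at 0.294 stood close below.

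CCN2 (formerly CTGF) had rates of 0.557, 0.679, 0.680 and 0.691 in MDA-LM2, in the same order of series, against 0.410, 0.432, 0.353 and 0.421 in MDA-MB-231. The groups did not overlap, and within MDA-LM2 series 1_1 stood below the other 3. CCN2 decay was faster in MDA-LM2, at 0.652 ± 0.0633 in MDA-LM2, against 0.404 ± 0.0351 in MDA-MB-231 (SD, n = 4 each), a difference of 0.248 ± 0.0453 (SE, limma, adjusted p = 0.0189 over all genes). The call did not hold when a correlation between series that share their second number was fitted (limma, adjusted p = 0.0983), nor without MDA-LM2 series 1_2, 2_1 or 2_2 (limma, adjusted p between 0.0601 and 0.0636). Over all alternatives the adjusted p of CCN2 ran from 0.0114 to 0.136, and the difference from 0.231 to 0.279. In the authors' deposited table, whose score is negative where decay was faster in MDA-LM2, CCN2 had -0.999. LATS2, AMOTL2 and ANKRD1, which limma did not call, had -0.992, -0.883 and -0.78 there, while AXL, YAP1 and TEAD1 had positive scores. The score had the sign opposite to the difference in these rates in 100% of transcripts, so it is not separate support for the call.

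Of the 9 members other than CCN1, CCN2 was the 1 called faster in MDA-LM2 by limma at an adjusted p of 0.05, and 0 were called slower. Of all genes, 2.00% were called faster and 6.71% slower. Over all genes the calls were 217 faster and 726 slower, and 434 faster and 559 slower once the median of each series was subtracted. At an unadjusted p under 0.05, 2 of the 9 members were faster and 0 slower, against 7.08% and 19.1% of all genes. An unequal-variance comparison called 1 of the 9 faster and 0 slower, against 1.09% and 4.75% of all genes. With the fitted correlation between series, 0 of the 9 were called in either direction, against 0.333% of all genes faster and 3.19% slower. Members with all 4 MDA-LM2 rates above all 4 MDA-MB-231 rates numbered 2 of these 9, CCN2 and LATS2, against 5.62% of all genes, and 0 of the 9 had all 4 below, against 17.6% of all genes. The mean rate was higher in MDA-LM2 for 6 of the 9 members other than CCN1, and for 33.0% of all genes.

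**Figure D1:**
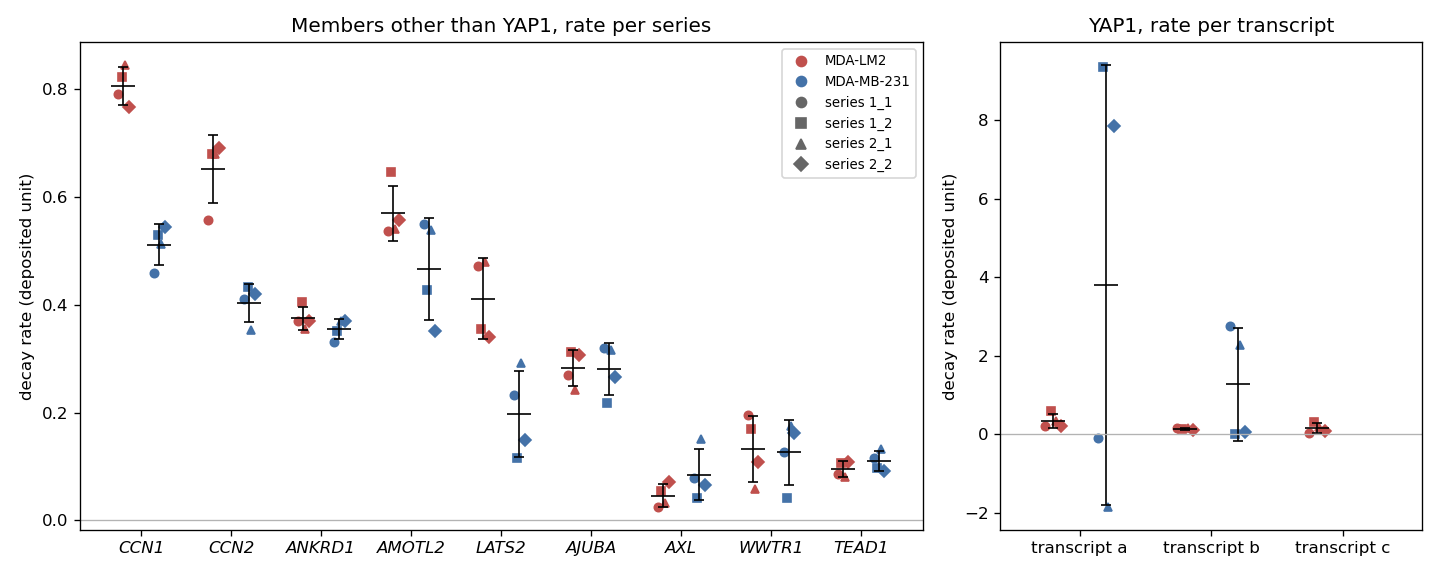
Decay rate in the deposited unit for each member and series, MDA-LM2 in red left of MDA-MB-231 in blue, with marker shapes for the series and bars for the mean and SD over 4 series. YAP1 has a panel of its own with a wider axis, since its MDA-MB-231 rates run from -1.87 to 9.34; its transcripts a, b and c are NM_001195044, NM_001195045 and NM_006106, the last with rates in MDA-LM2 alone.

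LATS2, the kinase that inhibits YAP and is itself a YAP target, was the other member whose groups did not overlap. Its rates were 0.472, 0.355, 0.480 and 0.340 in MDA-LM2, against 0.232, 0.116, 0.291 and 0.149 in MDA-MB-231. In both lines series 1_1 and 2_1 stood above series 1_2 and 2_2. The means were 0.411 ± 0.0744 in MDA-LM2, against 0.197 ± 0.0794 in MDA-MB-231 (SD, n = 4 each), and the difference of 0.214 ± 0.0534 (SE) did not pass the threshold (limma, adjusted p = 0.0549). The difference was 0.214 both among series whose second number is 1 (0.476 in MDA-LM2, against 0.262 in MDA-MB-231) and among those whose second number is 2 (0.347 in MDA-LM2, against 0.133 in MDA-MB-231). With the second number as a batch term, added after the data were seen, LATS2 passed (limma, adjusted p = 0.00348), and it also passed with each series centred on its median (limma, adjusted p = 0.0358) and among genes with all rates within 1 (limma, adjusted p = 0.0425). Over all alternatives its adjusted p ran from 0.00348 to 0.146. The batch term takes the effect of the second number as the same in both lines. Across all genes, same-numbered series of the lines did not deviate together (Spearman -0.023 to 0.00556).

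AMOTL2, an angiomotin family scaffold that binds YAP at cell junctions, had 0.537, 0.645, 0.541 and 0.557 in MDA-LM2, against 0.550, 0.427, 0.538 and 0.351 in MDA-MB-231. The groups overlapped through MDA-MB-231 series 1_1 and 2_1. The means were 0.570 ± 0.051 in MDA-LM2, against 0.466 ± 0.0947 in MDA-MB-231 (SD, n = 4 each), with a difference of 0.104 ± 0.058 (SE, limma, adjusted p = 0.282). The difference was 0.212 among the series whose second number is 2 and -0.00494 among those whose second number is 1. Whether the second number marks a shared preparation is not given in the sources used here.

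ANKRD1, a nuclear ankyrin repeat protein induced in stretched muscle and by YAP, had rates that lay close together in both lines. It had 0.370, 0.405, 0.355 and 0.369 in MDA-LM2, against 0.331, 0.351, 0.371 and 0.369 in MDA-MB-231. The groups overlapped, with means of 0.375 ± 0.0213 in MDA-LM2, against 0.355 ± 0.0184 in MDA-MB-231 (SD, n = 4 each) and a difference of 0.0193 ± 0.0246 (SE, limma, adjusted p = 0.604). Its SD was smaller than that of CCN1 and of CCN2 in both lines.

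AJUBA, a LIM domain protein that restrains LATS kinases, had rates between 0.241 and 0.312 in MDA-LM2 and between 0.218 and 0.320 in MDA-MB-231. Its means were 0.282 ± 0.0338 in MDA-LM2, against 0.280 ± 0.0482 in MDA-MB-231 (SD, n = 4 each), with a difference of 0.00194 ± 0.0321 (SE, limma, adjusted p = 0.977). Its 2 transcripts differed in opposite directions, by 0.0454 and -0.0415. AXL, a receptor tyrosine kinase that is activated by GAS6, had rates between 0.0240 and 0.0706 in MDA-LM2 and between 0.0415 and 0.151 in MDA-MB-231. Its means were 0.0453 ± 0.0213 in MDA-LM2, against 0.0841 ± 0.0473 in MDA-MB-231 (SD, n = 4 each), with a difference of -0.0388 ± 0.0261 (SE, limma, adjusted p = 0.357). The AXL difference was -0.0164 without MDA-MB-231 series 2_1, -0.0141 with centred series and -0.00982 for the transcript with the lower accession number. It was larger, at -0.0530, without MDA-MB-231 series 1_2, and -0.0679 for the other transcript. In both genes the groups overlapped.

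Among the regulators, TEAD1 and WWTR1 had low rates and overlapping groups. TEAD1, which brings YAP and TAZ to DNA, had rates between 0.0803 and 0.108 in MDA-LM2 and between 0.0915 and 0.133 in MDA-MB-231. Its means were 0.0955 ± 0.0143 in MDA-LM2, against 0.109 ± 0.0187 in MDA-MB-231 (SD, n = 4 each), and its difference of -0.0138 ± 0.0156 (SE, limma, adjusted p = 0.557) turned to 0.0110 when each series was centred on its median. The transcript of WWTR1 measured in both lines had rates between 0.0584 and 0.195 in MDA-LM2 and between 0.0415 and 0.175 in MDA-MB-231. Its means were 0.133 ± 0.0616 in MDA-LM2, against 0.126 ± 0.0601 in MDA-MB-231 (SD, n = 4 each), a difference of 0.00650 ± 0.0415 (SE, limma, adjusted p = 0.931). A further WWTR1 transcript, NM_015472, had rates in the MDA-LM2 table alone, at 0.165, 9.56, 0.347 and 9.33, high in series 1_2 and 2_2.

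YAP1 was the member with the widest spread. Its rates, medians over 2 transcripts, were 0.171, 0.350, 0.239 and 0.148 in MDA-LM2, against 1.32, 4.67, 0.197 and 3.94 in MDA-MB-231. The groups overlapped through MDA-MB-231 series 2_1. The means were 0.227 ± 0.0907 in MDA-LM2, against 2.53 ± 2.12 in MDA-MB-231 (SD, n = 4 each), and the difference of -2.31 ± 0.993 (SE) did not pass (limma, adjusted p = 0.197).

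The high YAP1 rates followed the second number of the series, in opposite ways for the 2 transcripts. NM_001195044 had -0.106, 9.34, -1.87 and 7.84 in MDA-MB-231 series 1_1, 1_2, 2_1 and 2_2. NM_001195045 had 2.74, 0.000473, 2.26 and 0.0464 in the same series. The first was thus high where the second was near 0. In MDA-LM2 both stayed between 0.0940 and 0.581, and the other transcript, NM_006106, had 0.146 ± 0.124 (SD, n = 4) there. Near-identical transcripts of 1 gene share reads, so the split between them is uncertain, and the part of this split in the YAP1 value was not tested.

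Rates beyond 1 either side of 0 were held by 3.96 ± 0.793% of genes in MDA-LM2, against 17.5 ± 0.882% in MDA-MB-231 (SD, n = 4 series each). Every member other than YAP1 had all 8 rates within 1. Over all genes the median rate stood at 0.165 ± 0.0106 in MDA-LM2, against 0.189 ± 0.0152 in MDA-MB-231 (SD, n = 4 each). Series that share their second number were more alike than others, with Spearman coefficients across genes of 0.792 to 0.837 against 0.609 to 0.628 in MDA-LM2, and of 0.631 to 0.780 against 0.253 to 0.361 in MDA-MB-231.

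Ordered by mean rate, the members had CCN1 at the fast end and AXL at the slow end in MDA-LM2. There CCN1 lay above CCN2 in every series, AMOTL2 overlapped CCN2 and lay above LATS2, LATS2 overlapped ANKRD1, and ANKRD1 lay above AJUBA. AJUBA, YAP1, WWTR1 and TEAD1 followed, each overlapping the next, and AXL lay below TEAD1. In MDA-MB-231 YAP1 had the highest mean, and CCN1, AMOTL2, CCN2 and ANKRD1 followed, each overlapping its neighbour. ANKRD1 lay above AJUBA there too, and AJUBA, LATS2, WWTR1, TEAD1 and AXL formed an overlapping run. LATS2 lay above AJUBA in MDA-LM2, while in MDA-MB-231 its mean was the lower of the pair and the rates overlapped.

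Placed among the 7223 genes with all rates within 1, CCN1 was the fastest of all in MDA-LM2 and of rank 54 in MDA-MB-231. CCN2 ranked 3 in MDA-LM2, against 255 in MDA-MB-231, and AMOTL2 ranked 10 in MDA-LM2, against 122 in MDA-MB-231. LATS2 ranked 151 in MDA-LM2, against 2653 in MDA-MB-231, the widest gap among the members placed. ANKRD1 ranked 266 in MDA-LM2, against 462 in MDA-MB-231. AJUBA ranked 1049 in MDA-LM2, against 1122 in MDA-MB-231. WWTR1, TEAD1 and AXL lay lower, at 4111, 5067 and 6216 in MDA-LM2 and at 4783, 5328 and 6002 in MDA-MB-231. Among these genes the transcripts of the secreted CCN proteins and AMOTL2 thus lay in the fast tail of both lines, and those of AXL and TEAD1 in the slower part of both. Over all 10827 genes, which include those with rates beyond 1, CCN1 stood at percentile 94.1 of the rates in MDA-LM2, against 71.3 in MDA-MB-231. CCN2 stood there at percentile 93.4 in MDA-LM2, against 68.6 in MDA-MB-231, and AMOTL2 at 92.8 in MDA-LM2, against 70.3 in MDA-MB-231. ANKRD1, with a difference in rate of 0.0193, stood at 87.3 in MDA-LM2, against 66.4 in MDA-MB-231. AJUBA, with a difference of 0.00194, stood at 76.7 in MDA-LM2, against 59.8 in MDA-MB-231. AXL stood at 14.0 in MDA-LM2, against 13.9 in MDA-MB-231. A lower percentile in MDA-MB-231 was thus also found in members with almost no difference in rate.

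**Figure D2:**
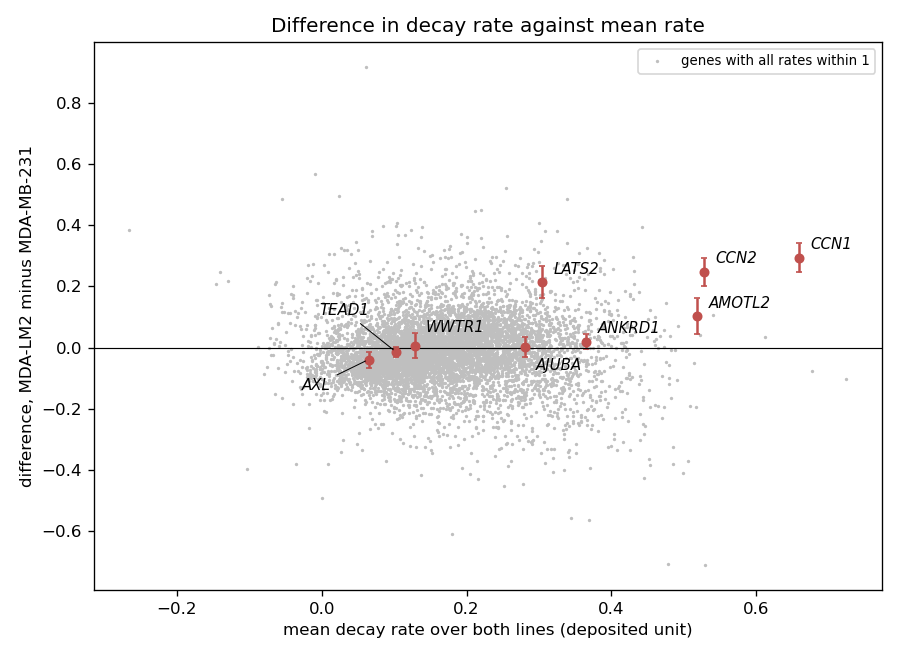
Difference in decay rate (MDA-LM2 minus MDA-MB-231, deposited unit) against the mean rate over both lines for the 7223 genes with all rates within 1 (grey), with the 9 members among them in red and bars for the SE from limma. CCN1, CCN2 and AMOTL2 lie at the fast edge, and LATS2 at a difference of 0.214 lies well to their left.

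Among the genes whose 8 rates were nearest to those of CCN1 by Euclidean distance were CCN2 (distance 0.401), AMOTL2 (0.537), DUSP1 (0.570) and LIF (0.579). The distance reflects the level of the rates as well as the difference between the lines, and the 8 rates of a gene share their libraries with those of every other gene. DUSP1, an immediate early phosphatase of MAP kinases, had 0.630 ± 0.161 in MDA-LM2, against 0.594 ± 0.167 in MDA-MB-231 (SD, n = 4 each). LIF, a cytokine of the IL-6 family, had 0.543 ± 0.0705 in MDA-LM2, against 0.503 ± 0.111 in MDA-MB-231 (SD, n = 4 each). DUSP1 and LIF overlapped between the lines and were not called by limma, with adjusted p of 0.840 and 0.696. By the same measure ANKRD1 was of rank 129, LATS2 of rank 313 and AJUBA of rank 780. Of the other CCN family genes, CCN3 had rates in the MDA-MB-231 table alone, with a mean of -0.138 ± 0.379 (SD, n = 4), and no rate of CCN4, CCN5 or CCN6 was used here.

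A wider list of 30 YAP/TAZ targets had 26 measured genes, 25 without CCN1. The 25 include the members CCN2, ANKRD1, AMOTL2, LATS2, AJUBA and AXL, and the other 19 are not members. Of the 25, limma called 2 faster in MDA-LM2, CCN2 and FJX1, and 1 slower, TGM2, against 2.00% and 6.71% of all genes. With the fitted correlation it called 0 in either direction, against 0.333% of all genes faster and 3.19% slower. At an unadjusted p under 0.05, 5 of the 25 were faster and 1 slower, against 7.08% and 19.1% of all genes. All 4 MDA-LM2 rates lay above all 4 MDA-MB-231 rates in 6 of the 25 and below them in 1, against 5.62% and 17.6% of all genes. The median difference of the 25 was 0.00194, against -0.0539 over all genes. Among the 19 outside the members it was -0.0164, with 1 called faster and 1 slower. Of those 19, 4 had all MDA-LM2 rates above the MDA-MB-231 rates and 1 had all below.

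FJX1, the human counterpart of the Drosophila gene four-jointed, had 0.341, 0.345, 0.332 and 0.348 in MDA-LM2, against 0.146, 0.178, 0.0179 and 0.227 in MDA-MB-231. Its MDA-LM2 rates were close together and all above the MDA-MB-231 rates, with means of 0.341 ± 0.00675 in MDA-LM2, against 0.142 ± 0.0891 in MDA-MB-231 (SD, n = 4 each). The difference was 0.199 ± 0.0441 (SE, limma, adjusted p = 0.0375). That call did not hold with the fitted correlation (limma, adjusted p = 0.144) or in the unequal-variance comparison (adjusted p = 0.159). TGM2, the crosslinking enzyme tissue transglutaminase, had 0.121, 0.120, 0.127 and 0.102 in MDA-LM2, against 0.180, 0.185, 0.197 and 0.182 in MDA-MB-231. All its MDA-LM2 rates lay below the MDA-MB-231 rates, with means of 0.117 ± 0.0108 in MDA-LM2, against 0.186 ± 0.00753 in MDA-MB-231 (SD, n = 4 each). The difference was -0.0685 ± 0.0139 (SE, limma, adjusted p = 0.0279), close to that of the median gene, and with each series centred on its median it was -0.0438 (limma, adjusted p = 0.110). With the fitted correlation the adjusted p of TGM2 was 0.120 (limma). TGM2 has 2 transcripts, and in a limma fit on transcripts the one with the lower accession number, NM_004613, differed by -0.0202 (limma, adjusted p = 0.489). Leaving out 1 series at a time, the adjusted p of limma ran from 0.0184 to 0.102 for FJX1 and from 0.0324 to 0.0981 for TGM2, and both calls were lost without any 1 of the MDA-LM2 series. FJX1 also lost its call without MDA-MB-231 series 1_1, and TGM2 without MDA-MB-231 series 2_1.

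The genes at both ends of the target list had rates that varied widely between the MDA-MB-231 series. ARHGEF17, a guanine nucleotide exchange factor, had the highest mean over both lines, with 0.413 ± 0.148 in MDA-LM2, against 4.82 ± 5.09 in MDA-MB-231 (SD, n = 4 each), where series 1_1 and 2_2 were at 9.25 and 9.21. CCDC80, a secreted matrix protein, had the lowest, with 0.122 ± 0.0194 in MDA-LM2, against -0.0878 ± 0.426 in MDA-MB-231 (SD, n = 4 each).

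The list of 45 Hippo pathway genes had 42 measured genes. These include the members AMOTL2, LATS2, AJUBA, YAP1, WWTR1 and TEAD1, and the other 36 are not members. Limma called 0 of the 42 faster in MDA-LM2 and 1 slower, against 2.00% and 6.71% of all genes. At an unadjusted p under 0.05 it gave 2 faster and 8 slower, against 7.08% and 19.1% of all genes. The unequal-variance comparison called 0 faster and 2 slower, against 1.09% and 4.75% of all genes. All 4 MDA-LM2 rates lay above all 4 MDA-MB-231 rates in 4 of the 42 and below them in 7, against 5.62% and 17.6% of all genes, and the median difference was -0.0128. Among the 36 outside the members the median difference was -0.0385, with 0 called faster and 1 slower. The 8 slower at an unadjusted p and the 7 that lay below were thus near the shares of all genes. The called gene was CSNK1E, a casein kinase 1 isoform that, like CSNK1D, phosphorylates YAP ahead of its degradation. It had 0.187, -0.0236, 0.0696 and 0.285 in MDA-LM2, against 2.51, 2.51, 2.64 and 2.54 in MDA-MB-231. The groups lay far apart, with means of 0.129 ± 0.135 in MDA-LM2, against 2.55 ± 0.0595 in MDA-MB-231 (SD, n = 4 each) and a difference of -2.42 ± 0.162 (SE, limma, adjusted p = 8.77e-05). Its MDA-MB-231 rates all lay beyond 1, in the range that held 17.5% of the genes in that line. CSNK1D went the other way, with a difference of 1.20 (limma, adjusted p = 0.304). It had 2.76, 2.49, -0.0140 and 2.35 in MDA-LM2, against 1.96, 0.222, 0.302 and 0.282 in MDA-MB-231. Rates near 2.5 also occurred in RASSF1, at 2.51 and 2.54 in MDA-LM2 series 1_2 and 2_2. Whether rates at this level measure decay was not tested.

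The gene of the pathway list with the highest mean rate over both lines was VGLL4, a cofactor that competes with YAP for TEAD. It had 0.180, 9.62, 0.429 and 9.48 in MDA-LM2, against 9.68, 2.03, 9.71 and 2.28 in MDA-MB-231. As in YAP1, the high rates followed the second number of the series, here in opposite ways in the 2 lines. Rates of similar size recurred in other genes of the list. In MDA-MB-231 series 1_1 and 2_1, WTIP had 9.405 and 9.372, and RASSF1 had 9.66 and 9.62. Whether rates of this size measure decay was not tested, so the high mean of VGLL4 is not read as fast decay. The lowest mean of the pathway list was that of YWHAB, a 14-3-3 protein of the family that holds phosphorylated YAP in the cytoplasm. It had 0.0471 ± 0.0397 in MDA-LM2, against 0.0981 ± 0.0214 in MDA-MB-231 (SD, n = 4 each).

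**Figure D3:**
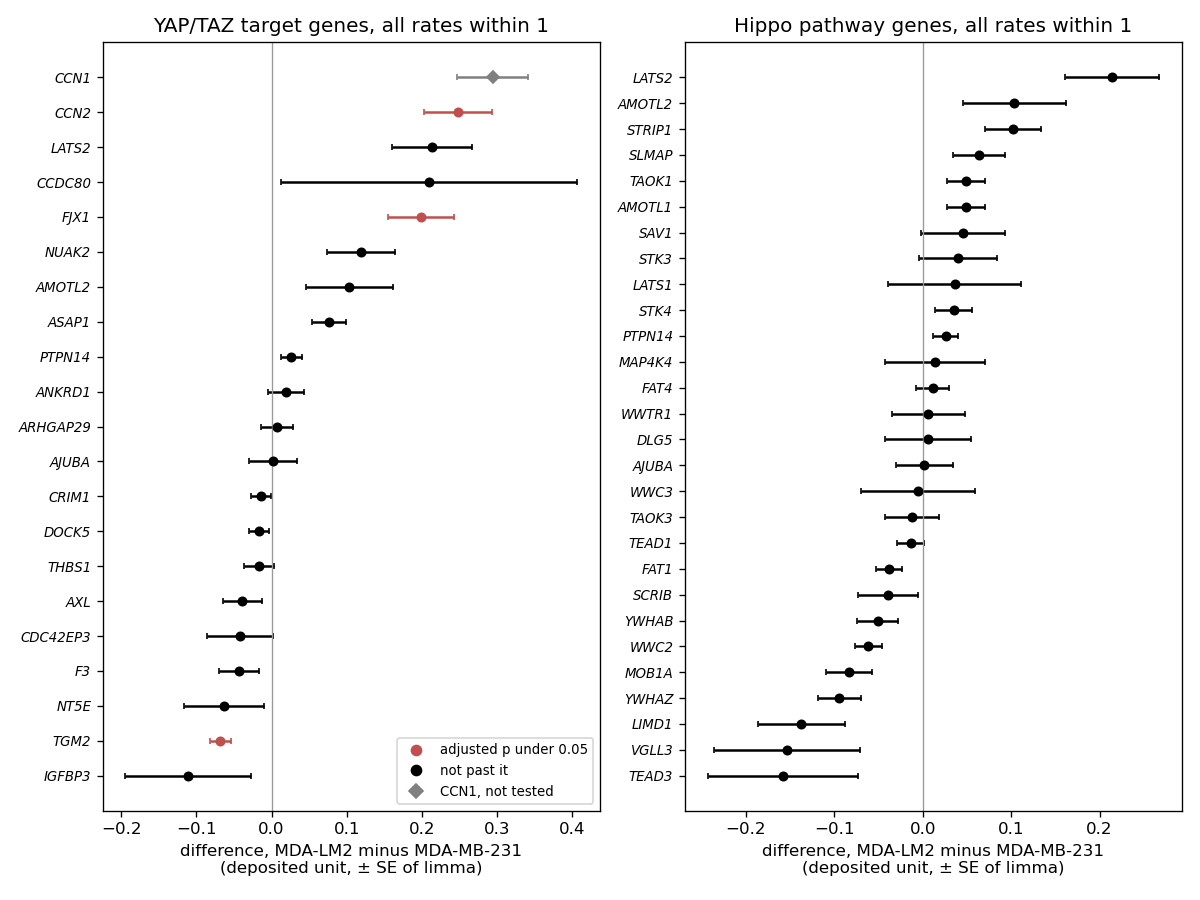
Difference in decay rate (MDA-LM2 minus MDA-MB-231, deposited unit) with the SE from limma for the genes with all rates within 1 of the YAP/TAZ target list (left, 21 genes) and the Hippo pathway list (right, 28 genes). CCN2, FJX1 and TGM2 are called (red), CCN1 was not tested (grey), and LATS2 has the highest difference of the pathway genes shown.

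The members differed in their AU-rich content (windows above). CCN1 held 5 pentamers in a 3′ UTR of 920 bases, CCN2 held 3 in 1088 bases, ANKRD1 held 4 in 770 bases, and AMOTL2 held 2 in 1831 bases. LATS2 held 6 in 1838 bases, AJUBA held 9 in 2269 bases and TEAD1 held 5 in 812 bases. AXL had 0 in 1862 bases. YAP1 had 0 in the 212 bases of its matched transcript, a length at percentile 10.9 of the matched genes. Each count is of 1 matched transcript, and whether its 3′ UTR is complete was not tested. The nonamer TTATTTATT, which holds the pentamer, was present in ANKRD1 and LATS2 and in 9.0% of the 9534 genes. TEAD1 with 5 pentamers was slow and AMOTL2 with 2 was fast, so the count in the matched transcripts did not order the rates of the members.

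Over genes with all rates within 1 and no pentamer, the median rate was 0.122 in MDA-LM2, against 0.141 in MDA-MB-231. It was 0.161 in MDA-LM2, against 0.165 in MDA-MB-231, with 1 or 2 pentamers. With 3 to 5 it was 0.170 in MDA-LM2, against 0.176 in MDA-MB-231, and with 6 or more 0.149 in MDA-LM2, against 0.166 in MDA-MB-231. Among these genes the medians were lowest without a pentamer in both lines. Over all matched genes this order did not hold in MDA-MB-231: with no pentamer the median was 0.151 in MDA-LM2, against 0.218 in MDA-MB-231, and with 6 or more it was 0.160 in MDA-LM2, against 0.194 in MDA-MB-231. CCN1 and CCN2, with 5 and 3 pentamers, lay far above the medians of their class in both lines. The classes also differed in 3′ UTR length. Over all matched genes the median length was 341 bases with no pentamer and 794 with 1 or 2. It was 1539 bases with 3 to 5 and 3298 with 6 or more. Pentamer count and length were not separated here.

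**Figure D4:**
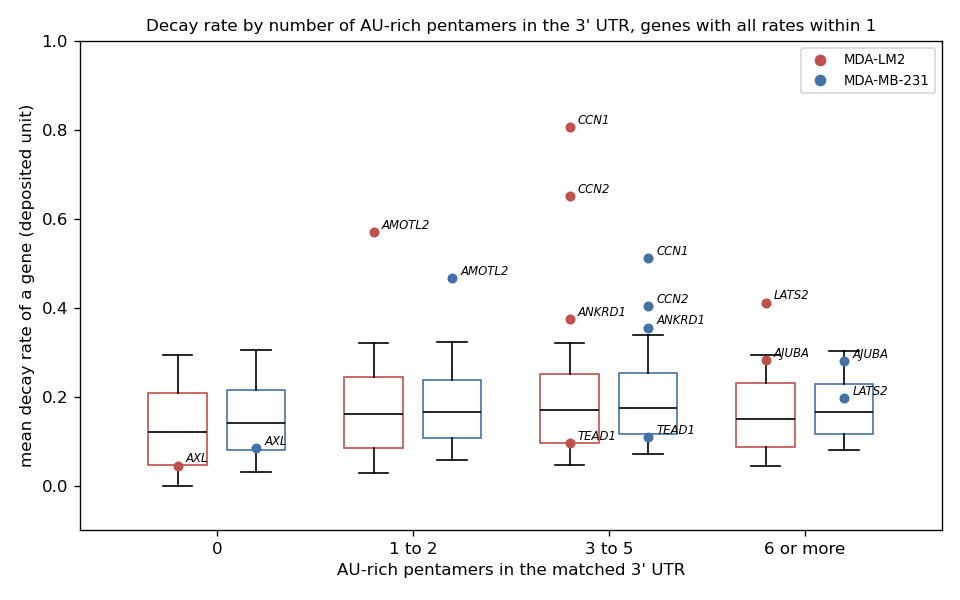
Mean decay rate (deposited unit) by the number of ATTTA pentamers in the matched 3′ UTR, MDA-LM2 in red left of MDA-MB-231 in blue, for genes with all rates within 1. Boxes span the quartiles with a line at the median and whiskers reach the 10th and 90th percentiles; CCN1, CCN2, ANKRD1 and AMOTL2 lie above the upper whisker of their class in both lines, and LATS2 in MDA-LM2.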

How the data were processed

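The authors deposited, for each line, 1 decay rate per transcript and replicate series. Per the file headers and the labels, a rate is positive where abundance fell. The submitters' processing notes name TopHat, Cufflinks and hg18, with no version. A differential score deposited by the authors for each transcript had the sign opposite to the MDA-LM2 minus MDA-MB-231 difference in 100% of 12966 transcripts. Read depth is unknown.

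Of 14545 transcripts in the MDA-LM2 table and 14193 in the MDA-MB-231 table, 12966 were in both. Symbols came from RefSeq (12644) and GENCODE (108), and 214 accessions without one were kept as they are. Transcripts of a gene were summarised by their median, which gave 10827 genes, 9136 with 1 transcript, and 0 rate columns were left unmapped. The 4 against 4 series were compared with limma 3.58.1 under R 4.3.3 (two-sided, with a variance trend and without a block), with Benjamini-Hochberg adjustment over all 10827 genes and a threshold of 0.05. No filter on rates was applied, and the fit was tested on simulated data. Alternatives were another variance model, a correlation between series sharing the second number, a replicate block, centring, a range limit, the mean over transcripts, single transcripts, an unequal-variance comparison, a batch term and leaving out each series.

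The members and lists were chosen with earlier results of these data known. Genes named are the members, list genes past the threshold with the fastest and slowest of each list, the 5 nearest to CCN1, and the CCN family, and not every gene this rule selects is reported here. The neighbours of CCN1 by increase and the promoter motif were added after the data were seen. Same-numbered series of the lines did not deviate together (Spearman -0.023 to 0.00556 across genes), so the numbers were not taken as pairs. Promoters are from RefSeq GRCh38.p14 and 3′ UTRs from GENCODE v29. Because the tables' build differs, coordinates are those of the promoter table alone.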

Additional observations from a re-analysis of the deposited data

Results flagged for a closer look

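CCN2 in MDA-LM2 series 1_1 had a rate of 0.557, apart from 0.679, 0.680 and 0.691 in the other 3 MDA-LM2 series, while the MDA-MB-231 rates ran from 0.353 to 0.432. It was picked out because its gap to the nearest series took up more of the group's range than Dixon's test allows. Without it the difference was 0.279 (limma, adjusted p = 0.0175). Of 40 groups of 4 series examined, over 20 named genes, 1 stood out in this way, and chance gives about 2.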

How the results depend on the processing

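The direction of the difference in CCN1, CCN2, ANKRD1, AMOTL2, LATS2, AXL and YAP1 was the same under every alternative that gave a value, though that of AXL ranged from -0.0530 to -0.00982 and that of ANKRD1 from 0.00922 to 0.0440. A split by the second number was not among these alternatives. Series with second number 1 and 2 gave differences of -0.0867 and 0.00898 for AXL and -0.00494 and 0.212 for AMOTL2. They gave -0.0636 and 0.0675 for AJUBA, -0.0407 and 0.0132 for TEAD1, and -0.0238 and 0.0368 for WWTR1. The other members kept their direction in that split. YAP1 has no value among genes with all rates within 1. WWTR1 ranged from -0.0217 to 0.0312 and AJUBA from -0.0189 to 0.0157 when series were left out, and TEAD1 turned to 0.0110 with centred series. The second number as a batch term, and the range limit combined with a correlation, were chosen after seeing the data. Under the replicate block, limma called 0 members, 27 genes faster and 250 slower in MDA-LM2, against 217 and 726 without it, and 0 YAP/TAZ targets in either direction and 2 Hippo genes slower; CCN2 then had an adjusted p of 0.133. With a correlation between series sharing the second number, 36 genes were faster and 345 slower, with 0 members and 0 targets in either direction. With that correlation and the range limit together, 0 genes were faster and 1 slower, and 0 members, 0 targets and 0 Hippo genes were called. With centred series, 434 genes, 2 members, 4 targets and 2 Hippo genes were faster, and 0 targets slower. The unequal-variance comparison gave 118 genes and 1 target faster, and 514 genes and 2 Hippo genes slower. Among the 7223 genes of the range limit, 265 were faster and 529 slower. There 2 members, 3 targets and 1 Hippo gene were faster, and 1 target and 1 Hippo gene slower. The batch term gave 247 genes faster and 773 slower. With it 2 members, 3 targets and 1 Hippo gene were faster, and 1 target and 2 Hippo genes slower. A fit on transcripts, with the lowest accession number of each gene, gave 0 targets slower. Leaving out 1 series at a time gave 84 to 283 genes faster and 406 to 1007 slower, 0 to 2 members faster, 0 to 3 targets faster and 0 to 1 slower, and 0 to 1 Hippo genes faster and 1 to 3 slower. The cause of these changes was not tested. With 4 series per line and no depth in the tables, differences near the SE of the members, 0.0156 to 0.058 apart from YAP1, could not be resolved.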
